A study of Mus musculus with 12 samples.

Results

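The genes described here code for 9 proteins of the cardiac lipid droplet and of triglyceride turnover: the coat proteins Plin2, Plin4 and Plin5, the synthesis enzymes Dgat1 and Dgat2, and the lipases Pnpla2, Lipe, Mgll and Ces1d. They were taken by gene symbol from the platform annotation, which assigns 14 probes to them, and they are 9 of the 14240 genes tested in mouse heart. They were chosen by role, but with earlier results of the same arrays known, in which Ces1d was already listed among the larger falls with VEGF-B in VEGFR1-deleted hearts. For Ces1d, values of comparisons that use the VEGFR1del_VEGFB hearts are therefore given as a description without a p-value, and for the other genes an adjusted p is no independent evidence.

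RNA was taken from whole hearts of 12 adult male C57Bl/6J mice and read on Illumina bead arrays, with 1 array per heart. VEGFR1, the product of Flt1, is the receptor through which VEGF-B acts, and it also binds VEGF-A and placental growth factor. In Cdh5-Cre-ERT2; Flt1 flox/flox mice tamoxifen removed it from endothelial cells, the cell type in which the Cdh5 promoter drives the Cre recombinase. All mice are labelled with a virus, an intraperitoneal adeno-associated virus (AAV) with either VEGF-B or a scramble control. WT_Scramble held 3 wild-type hearts with AAV-Scramble, and VEGFR1del_Scramble held 3 hearts with the endothelial deletion and AAV-Scramble. WT_VEGFB held 2 wild-type hearts with AAV-VEGF-B, and VEGFR1del_VEGFB held 4 hearts with the deletion and AAV-VEGF-B. The labels do not say whether wild-type mice carried the Cre or received tamoxifen, and they give no age in weeks.

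Heart muscle takes up fatty acids in excess of what it burns at any moment and parks the surplus as triglyceride in small droplets beside the mitochondria. Diacylglycerol acyltransferases make the triglyceride, perilipins coat the droplet and govern the access of lipases to it, and lipases release the fatty acids in successive steps. Those fatty acids are fuel and also ligands of the PPAR nuclear receptors, and several perilipin and oxidation genes are known PPAR targets.

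Plin4 and Plin5 are neighbours on mouse chromosome 17, where Plin4 spans chr17:56100587-56109948 and Plin5 spans chr17:56111597-56117606 (RefSeq, GRCm38.p6, both on the minus strand), with 1648 bases between them. Plin2 lies on chromosome 4 (chr4:86626910-86670217, minus strand). The promoter windows of these 3 coat genes are shown because their signals were lower together in VEGFR1del_VEGFB hearts than in WT_Scramble hearts. Each runs 5′ to 3′ on the gene's strand from 250 bases before to 50 bases after the start site of the RefSeq table, at chr4:86670010-86670309, chr17:56109733-56110032 and chr17:56117499-56117798. These start sites lie inside the gene spans given above, so part of each window before its start site lies within the annotated gene. Capitals mark matches to AGGTCA (the half-site of nuclear receptors such as PPARs), to CACGTG (an E-box) or to TATAAA, on either strand.
Plin2: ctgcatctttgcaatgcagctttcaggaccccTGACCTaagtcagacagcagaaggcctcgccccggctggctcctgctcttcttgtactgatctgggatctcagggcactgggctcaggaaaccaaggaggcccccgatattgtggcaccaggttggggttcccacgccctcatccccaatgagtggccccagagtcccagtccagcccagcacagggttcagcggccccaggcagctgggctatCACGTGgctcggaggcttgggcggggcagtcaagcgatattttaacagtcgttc
Plin4: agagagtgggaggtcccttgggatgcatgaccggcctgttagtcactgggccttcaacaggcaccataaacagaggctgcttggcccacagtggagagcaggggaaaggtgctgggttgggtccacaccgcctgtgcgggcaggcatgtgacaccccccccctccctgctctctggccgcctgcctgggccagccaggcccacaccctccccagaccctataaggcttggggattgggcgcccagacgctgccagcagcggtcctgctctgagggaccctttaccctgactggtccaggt
Plin5: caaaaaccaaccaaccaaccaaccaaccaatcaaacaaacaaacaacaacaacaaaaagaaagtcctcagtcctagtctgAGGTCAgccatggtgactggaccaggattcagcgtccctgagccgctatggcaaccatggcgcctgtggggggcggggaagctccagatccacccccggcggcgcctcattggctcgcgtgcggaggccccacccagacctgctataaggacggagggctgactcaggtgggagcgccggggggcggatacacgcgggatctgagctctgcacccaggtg
The Plin2 window holds the half-site at -218 and the E-box at -4 from its start site, and the Plin5 window holds the half-site at -170. The Plin4 window holds none of the motifs searched. None of these windows holds the spaced pair AGGTCANAGGTCA, which 0.0396% of the 32851 promoter windows of the table hold on either strand. The single half-site occurs in 16.3% of those windows, the E-box in 7.15% and TATAAA in 13.6%. A second Plin5 start site is listed, and Pnpla2, Lipe and Mgll have windows that are not shown.

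The median probe signal per array was 98.7 to 111.5. The 6 arrays with VEGF-B virus each detected more probes (17516 to 18210) than any of the 6 with scramble virus (16685 to 17247), and the part of this in the changes with VEGF-B was not tested. Their number limits the precision. Each heart is 1 mouse, and within a group the sample titles differ only in the replicate number. The p-values measure the spread between these arrays. The library labelled VEGFR1del_Scramble replicate 3 went against its label. Its Flt1 signal (probe ILMN_1227926) was 11.56 on the log2 scale, against 8.19 and 8.46 in replicates 1 and 2, 8.93 to 9.47 in VEGFR1del_VEGFB, 10.79 to 10.91 in WT_Scramble and 11.22 and 11.51 in WT_VEGFB. It is not known whether this probe reads the floxed exons. The library was kept under its label, and changes that rest on it are also given on the other 11 arrays, which were normalized and fitted anew. The authors' deposited log2 table was quantile normalized in 3 separate sets of 5, 3 and 4 arrays. All VEGFR1del_VEGFB hearts form the set of 4, so in every comparison that uses them the group and the set cannot be told apart. The WT_VEGFB hearts and the doubted library form the set of 3, and all WT_Scramble hearts lie in the set of 5. In wild-type hearts VEGF-B therefore went with the set as well, and only the doubted library links these sets.

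Every level below is a background-corrected, quantile-normalized log2 signal, and every change is a difference of group means on that scale with its standard error (SE) from limma, with p-values adjusted by Benjamini-Hochberg over all genes and called under 0.05. A level of one probe is not set against that of another. All 9 genes were detected, and 13 of their 14 probes passed the filter on dim probes. The probe left out, ILMN_2552000 of Lipe, was detected on no array. In bulk heart RNA, fewer cells of a type and less RNA per cell cannot be told apart.

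**Figure D1:**
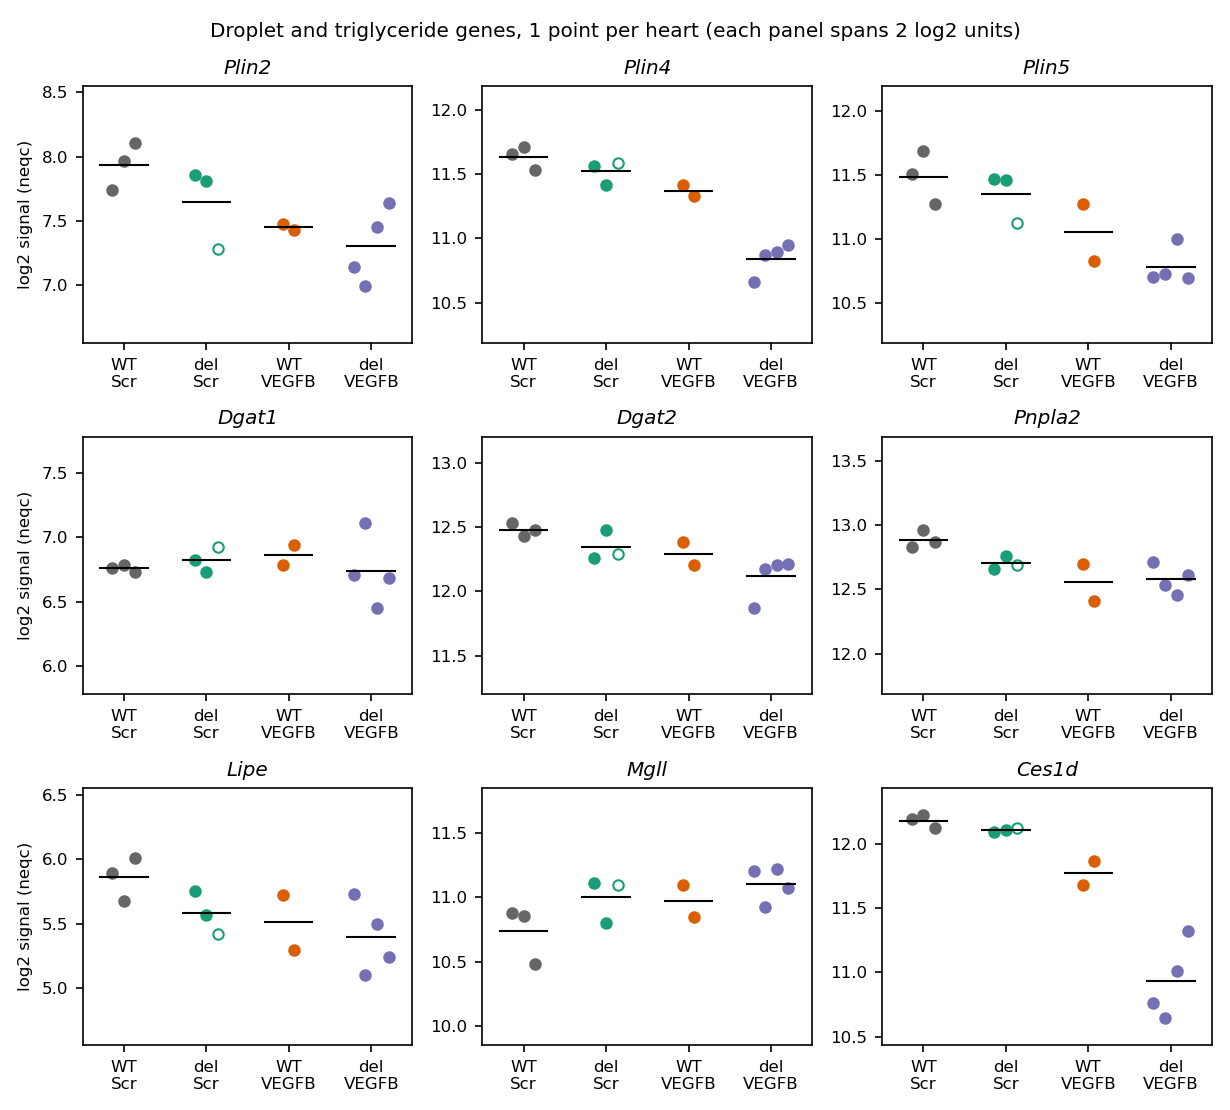
The log2 signal of the representative probe of each gene (vertical axis) is plotted for each heart, by group on the horizontal axis (Scr, scramble virus; del, VEGFR1-deleted), with group means as bars. The open circle is the library labelled VEGFR1del_Scramble replicate 3, and the 4 VEGFR1del_VEGFB hearts lie below every other heart for Ces1d and Plin4, and below both scramble groups for Plin5.

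Plin4 coats nascent droplets and is abundant in fat and muscle. Its probe ILMN_2588249 gave 11.65, 11.71 and 11.53 in WT_Scramble, 11.57, 11.42 and 11.59 in VEGFR1del_Scramble, 11.41 and 11.33 in WT_VEGFB, and 10.66, 10.87, 10.89 and 10.95 in VEGFR1del_VEGFB. The hearts with both deletion and VEGF-B were the lowest and did not overlap any other group, while the scramble groups overlapped each other and WT_VEGFB lay just below them. Group means ran from 11.63 ± 0.09 (SD, n = 3) in WT_Scramble through 11.52 ± 0.09 (SD, n = 3) and 11.37 ± 0.06 (SD, n = 2) to 10.84 ± 0.12 (SD, n = 4). In VEGFR1-deleted hearts Plin4 fell with VEGF-B by 0.68 (SE 0.10, adjusted p = 0.00834, limma), to 62.4% of the scramble level. Without the doubted library the change was -0.65 (adjusted p = 0.00836). In wild-type hearts the change with VEGF-B was -0.26 (SE 0.12, adjusted p = 0.308), which did not pass the test.

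Plin5 is the perilipin of oxidative tissue, which tethers droplets to mitochondria and restrains Pnpla2. Its brighter probe, ILMN_3158565, gave 11.51, 11.69 and 11.27 in WT_Scramble, 11.47, 11.46 and 11.13 in VEGFR1del_Scramble, 11.27 and 10.83 in WT_VEGFB, and 10.71, 10.73, 11.00 and 10.70 in VEGFR1del_VEGFB. The VEGFR1del_VEGFB hearts lay below both scramble groups but overlapped WT_VEGFB, and the lowest VEGFR1del_Scramble value, 11.13, belonged to the doubted library. In VEGFR1-deleted hearts Plin5 fell with VEGF-B by 0.56 (SE 0.14, adjusted p = 0.0419, limma), and on 11 arrays by 0.67 (adjusted p = 0.0226). This call was close to the threshold. It was lost under 5 of the 13 alternative settings, and without WT_Scramble replicate 1, VEGFR1del_Scramble replicate 1 or 2, or VEGFR1del_VEGFB replicate 1, 2 or 4, with an adjusted p of 0.0576 to 0.166. The change in wild-type hearts was -0.44 (SE 0.17, adjusted p = 0.230), and it was -0.65 without WT_VEGFB replicate 1 and -0.22 without WT_VEGFB replicate 2.

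The second Plin5 probe, ILMN_2607215, gave 8.19, 8.29 and 8.01 in WT_Scramble, 7.93, 8.27 and 7.45 in VEGFR1del_Scramble, 7.73 and 7.35 in WT_VEGFB, and 7.41, 7.25, 7.48 and 7.23 in VEGFR1del_VEGFB. Here the doubted library, at 7.45, lay within the range of the VEGFR1del_VEGFB hearts. Its change with VEGF-B in VEGFR1-deleted hearts was -0.54 (SE 0.17, adjusted p = 0.0906 over all probes, limma), not past the threshold. On 11 arrays the change was -0.75 (SE 0.15, adjusted p = 0.0138), so this probe passed without the doubted library.

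Plin2 coats droplets in most cells and is degraded when it is not bound to one. Its probe gave 7.74, 7.96 and 8.10 in WT_Scramble, 7.86, 7.81 and 7.28 in VEGFR1del_Scramble, 7.48 and 7.43 in WT_VEGFB, and 7.14, 6.99, 7.45 and 7.64 in VEGFR1del_VEGFB. Both VEGF-B groups lay below WT_Scramble, and the doubted library, at 7.28, lay among the VEGF-B hearts. The change with VEGF-B was -0.48 in wild-type hearts (SE 0.21, adjusted p = 0.280, limma) and -0.35 in VEGFR1-deleted hearts (SE 0.17, adjusted p = 0.281), and neither passed. Without the doubted library the second value was -0.53 (adjusted p = 0.0800), with no overlap between the groups.

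Dgat2 makes triglyceride from newly formed fatty acids at droplets, and Dgat1 acts in the endoplasmic reticulum. The Dgat2 probe gave 12.53, 12.43 and 12.48 in WT_Scramble, 12.26, 12.48 and 12.29 in VEGFR1del_Scramble, 12.38 and 12.20 in WT_VEGFB, and 11.87, 12.18, 12.21 and 12.21 in VEGFR1del_VEGFB. The VEGFR1del_VEGFB hearts were lowest apart from 1 WT_VEGFB heart in their range, but the changes with VEGF-B, -0.19 in wild type (SE 0.13, adjusted p = 0.529, limma) and -0.23 in VEGFR1-deleted hearts (SE 0.11, adjusted p = 0.263; -0.25 on 11 arrays), did not pass. Dgat1 gave 6.76, 6.79 and 6.73 in WT_Scramble, 6.82, 6.73 and 6.92 in VEGFR1del_Scramble, 6.79 and 6.95 in WT_VEGFB, and 6.71, 7.11, 6.45 and 6.68 in VEGFR1del_VEGFB. All 4 groups of Dgat1 overlapped, its change with VEGF-B in VEGFR1-deleted hearts was -0.09 (SE 0.13; -0.04 on 11 arrays), and its group means spanned 0.127, the narrowest range of the 9 genes.

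Pnpla2 (adipose triglyceride lipase) removes the first fatty acid of a triglyceride. It gave 12.83, 12.96 and 12.87 in WT_Scramble, 12.66, 12.76 and 12.69 in VEGFR1del_Scramble, 12.70 and 12.41 in WT_VEGFB, and 12.71, 12.53, 12.45 and 12.61 in VEGFR1del_VEGFB. Each of the other 3 groups lay below WT_Scramble, and those 3 overlapped one another. The change with VEGF-B was -0.33 in wild-type hearts (SE 0.12, adjusted p = 0.192, limma) and -0.12 in VEGFR1-deleted hearts (SE 0.10, adjusted p = 0.525; -0.13 on 11 arrays), and the change with the deletion alone was -0.18 (SE 0.11, adjusted p = 0.577; -0.18 on 11 arrays).

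Lipe (hormone-sensitive lipase) splits diacylglycerol, and Mgll (monoglyceride lipase) releases the last fatty acid. The brighter Lipe probe, ILMN_2742636, had raw signals of only 121.4 to 148.3, little above the array medians. It gave 5.90, 5.67 and 6.01 in WT_Scramble, 5.75, 5.57 and 5.42 in VEGFR1del_Scramble, 5.72 and 5.29 in WT_VEGFB, and 5.73, 5.10, 5.50 and 5.24 in VEGFR1del_VEGFB. Its groups overlapped, and its change with VEGF-B was -0.35 in wild type (SE 0.19, adjusted p = 0.414, limma) and -0.19 in VEGFR1-deleted hearts (SE 0.16, adjusted p = 0.551; -0.27 on 11 arrays). The second measurable Lipe probe, ILMN_3111326, detected on 10 arrays, went the other way with the deletion under scramble virus, at 0.49 (SE 0.13, adjusted p = 0.152 over all probes) against -0.28 (SE 0.17, adjusted p = 0.606). On 11 arrays these values were 0.40 and -0.20. No direction is therefore given for Lipe.

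Mgll was the only one of the 9 genes whose mean was highest in VEGFR1del_VEGFB. Its brightest probe, ILMN_2700408, gave 10.88, 10.86 and 10.48 in WT_Scramble, 11.11, 10.80 and 11.09 in VEGFR1del_Scramble, 11.10 and 10.84 in WT_VEGFB, and 11.21, 10.92, 11.22 and 11.07 in VEGFR1del_VEGFB. All VEGFR1del_VEGFB hearts lay above all WT_Scramble hearts. The change with VEGF-B was 0.23 in wild type (SE 0.16, adjusted p = 0.519, limma) and 0.10 in VEGFR1-deleted hearts (SE 0.13, adjusted p = 0.703; 0.15 on 11 arrays). The third Mgll probe, ILMN_2592925, gave -0.07 in VEGFR1-deleted hearts (SE 0.13; -0.06 on 11 arrays), so its probes differed in sign there.

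**Figure D2:**
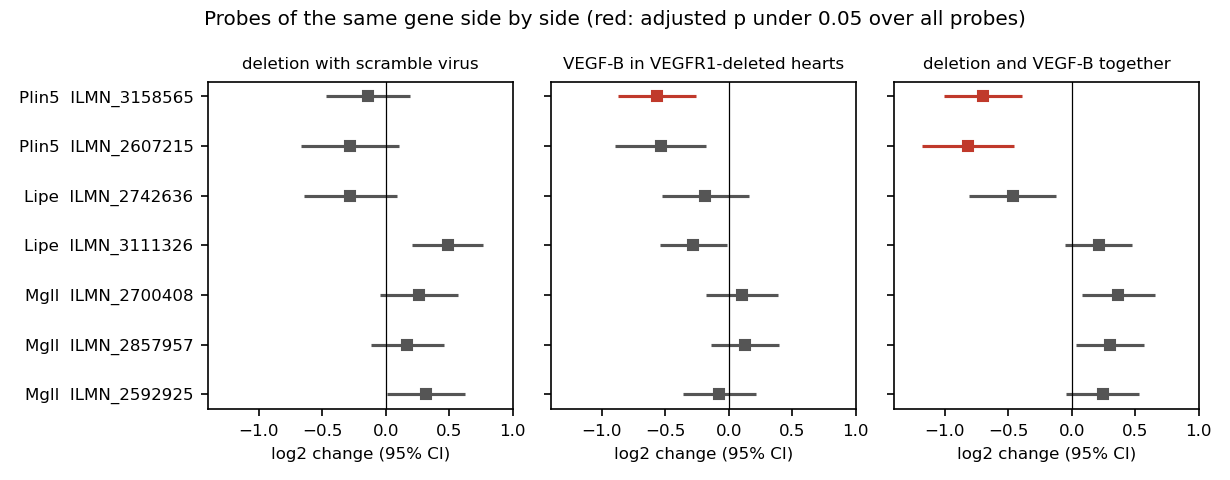
Changes in log2 signal with their 95% confidence intervals (horizontal axis) are plotted for each measured probe of Plin5, Lipe and Mgll (vertical axis) in 3 comparisons, from the fit over all probes. The Plin5 probes lie side by side at -0.56 and -0.54 with VEGF-B in VEGFR1-deleted hearts, while the Lipe probes lie on opposite sides of 0 for the deletion with scramble virus.

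Ces1d is a carboxylesterase that hydrolyses triglyceride and is best known from liver and fat. Its probe, ILMN_2625893, gave 12.19, 12.23 and 12.13 in WT_Scramble, 12.09, 12.11 and 12.13 in VEGFR1del_Scramble, 11.68 and 11.86 in WT_VEGFB, and 10.76, 10.64, 11.01 and 11.32 in VEGFR1del_VEGFB. The scramble hearts of both genotypes lay within 0.14 of one another, the WT_VEGFB hearts lay below them, and the VEGFR1del_VEGFB hearts lay below all others and were the most spread, at 10.93 ± 0.30 (SD, n = 4). In VEGFR1-deleted hearts the change with VEGF-B was -1.17 (SE 0.14), a signal at 44.3% of the scramble level, and it was also -1.17 (SE 0.16) without the doubted library. In wild-type hearts it was -0.41 (SE 0.17, adjusted p = 0.249, limma), which did not pass. Deletion under scramble virus gave -0.07 (SE 0.15, adjusted p = 0.914; -0.08 on 11 arrays). The Ces1 genes are close copies of one another, so the probe may read more than 1 of them.

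Hepatocyte and adipocyte markers were read beside Ces1d and the perilipins, because both cell types express these genes. Of the 7 hepatocyte markers, Alb, Apoa1, Fgb and Cps1 were detected on no array. The summed background-corrected signal of the 3 measured ones was 28.5 to 60.4 over all hearts. Of the adipocyte markers, Adrb3 and Cfd had no probe, and an undetected probe does not show that a gene was silent. Plin1, Cidec, Retn, Lep, Ucp1 and Fabp4 were detected on no array, and Adipoq and Car3 on 1 array each. Cidea, which mouse heart itself expresses, was on all 12, with a signal of 795 to 930 in WT_Scramble, 668 to 862 in VEGFR1del_Scramble, 658 and 780 in WT_VEGFB and 533 to 721 in VEGFR1del_VEGFB. None of the 9 measured cardiomyocyte markers was called in any comparison, and their summed signal was 112084 to 118250 over all hearts.

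Endothelial markers moved with the groups. The summed signal of the 10 markers was 14685 to 16022 in WT_Scramble, 19681 to 26280 in VEGFR1del_Scramble, 24218 and 24805 in WT_VEGFB and 29655 to 31284 in VEGFR1del_VEGFB. With VEGF-B, 4 of the 10 rose in wild-type hearts, where 1.99% of all genes were called, and 7 rose in VEGFR1-deleted hearts, where 4.61% were called (8 on 11 arrays, with 7.3% of all genes). With deletion and VEGF-B together 9 of the 10 rose, with a median of 0.91, where 21% of all genes were called. With the deletion under scramble virus none was called (limma), but all 10 lay above 0, with a median of 0.48 (0.42 on 11 arrays). An unadjusted p under 0.05 (limma) was reached by 8 of the 10, beside 1617 of all 14240 genes. On 11 arrays it was reached by 6, beside 1249 of 14116 genes. Macrophage markers summed to 1703 to 2277 in WT_Scramble, 1660 to 2548 in VEGFR1del_Scramble, 2218 and 3016 in WT_VEGFB and 2098 to 3671 in VEGFR1del_VEGFB, and 2 of the 9 measured rose with VEGF-B in VEGFR1-deleted hearts (3 on 11 arrays). The part of these shifts in the lower droplet gene signals was not tested.

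Taken comparison by comparison, VEGF-B in wild-type hearts moved none of the 9 genes past the threshold (limma). Of all 14240 genes, 284 or 1.99% were called. At an unadjusted p under 0.05 (limma) stood 5 of the 9 (Plin2, Plin4, Plin5, Pnpla2 and Ces1d, all lower), beside 2201 of all genes. The median change of the 9 was -0.33, beside -0.02 over all genes. With only 2 WT_VEGFB hearts these differences have wide errors, so a missed threshold does not show that the genes were level. Leaving out WT_VEGFB replicate 1 or 2 moved Pnpla2 to -0.47 or -0.19, Lipe to -0.56 or -0.14, Dgat2 to -0.28 or -0.10 and Mgll to 0.10 or 0.36, while Plin2 stayed at -0.51 and -0.46. Under a fit with the authors' normalization sets as a block, which leans on the doubted library as the link between sets, the Plin2 change was 0.07 and the Plin5 change -0.10, while Ces1d stayed at -0.44 and Plin4 at -0.35, none of them past the threshold.

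With VEGF-B in VEGFR1-deleted hearts, Plin4 and Plin5 were lower past the threshold. Counting in Ces1d, which is described without a test, the number was 3 of the 9. Of all genes, 656 or 4.61% were called and 1.79% were called and lower, and since Ces1d was known from this comparison nothing is read from the count. Plin4 and Plin5 passed again on 11 arrays, where 7.3% of all genes were called. With Ces1d counted in, the median over the 9 was -0.23 (-0.27 on 11 arrays), beside -0.01 over all genes. The median on 11 arrays is the value of Lipe, for which no direction is given.

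The deletion under scramble virus moved none of the 9 past the threshold (limma; 0 at an unadjusted p under 0.05), where 8 genes or 0.0562% of all were called, and 0.0638% without the doubted library. Changes ran from -0.28 for Plin2 to 0.26 for Mgll on 12 arrays. On 11 arrays Plin2 gave -0.10, Plin5 -0.03 and Plin4 -0.14, and the range ran from -0.20 for Lipe to 0.22 for Mgll. The deletion in the presence of VEGF-B also moved none past the threshold (limma), where 0 genes or 0% were called and 1572 had an unadjusted p under 0.05. Plin4 (-0.53, SE 0.11, adjusted p = 0.122) and Ces1d (-0.84, SE 0.16) stood out there, with the other 7 genes between -0.27 and 0.13. Plin4 passed the threshold under 5 of the 13 alternative settings.

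Whether the response to VEGF-B differed between genotypes was tested by the interaction. None of the 9 passed (limma), nor did any other gene, 0% on 12 as on 11 arrays. Ces1d aside, only Plin4 of the 9 had an unadjusted p under 0.05, beside 718 of all genes on 12 arrays. The interaction was -0.42 for Plin4 (SE 0.15, adjusted p = 0.976) and -0.76 for Ces1d (SE 0.22). On 11 arrays these values were -0.39 and -0.75. The responses of the 2 genotypes are thus not shown to differ for any of the 9, although Plin4 and Plin5 passed in 1 genotype and not in the other.

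**Figure D3:**
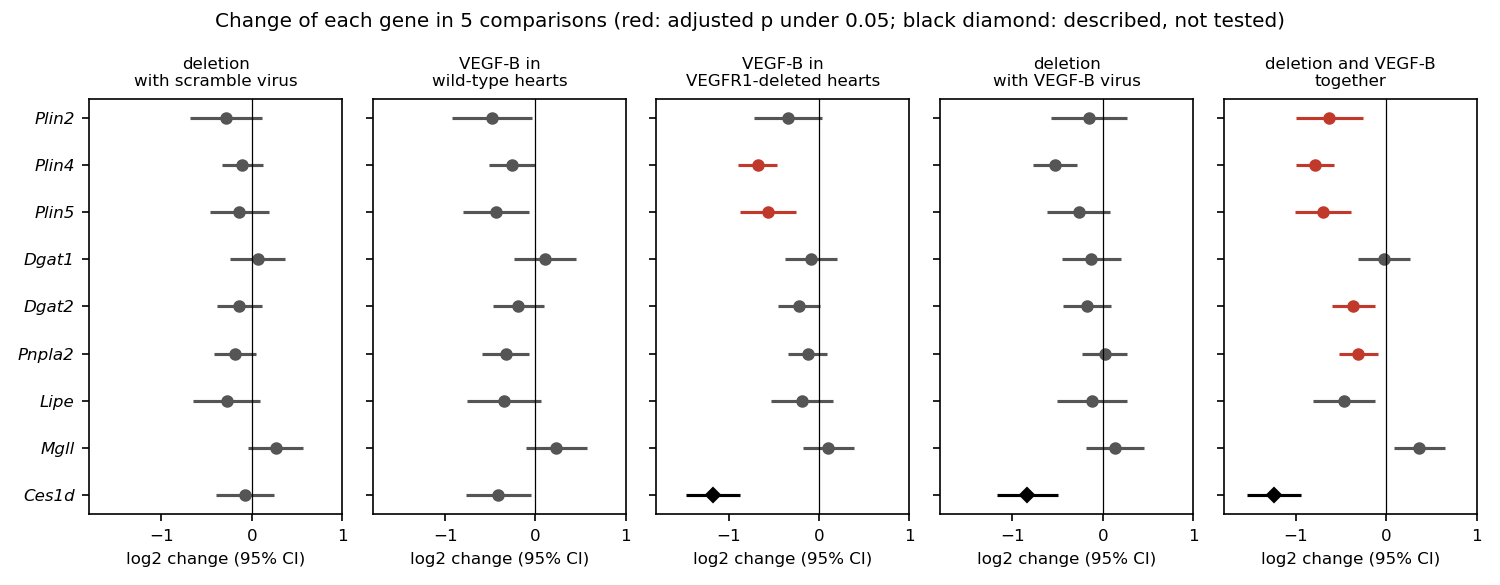
Changes in log2 signal with 95% confidence intervals (horizontal axis) are plotted for the 9 genes (vertical axis) in 5 comparisons. Red points passed an adjusted p of 0.05, and black diamonds are Ces1d values given without a test. In the last panel 5 of the other 8 genes are red and lower, and Mgll lies above 0.

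Hearts with both deletion and VEGF-B were set against wild-type hearts with scramble virus, a comparison that shares its arrays with those above and in which the doubted library is in neither group. In all, 6 of the 9 genes were lower past the threshold, where 2994 genes or 21% of all were called and 9.43% were called and lower. On 11 arrays the count was also 6. Ces1d is 1 of the 6, and its low signal in these hearts was known beforehand, so nothing is read from the count. All 3 coat genes fell, Plin4 by 0.79 (SE 0.10, adjusted p = 0.000159, limma), Plin5 by 0.70 (SE 0.14, adjusted p = 0.00378) and Plin2 by 0.63 (SE 0.17, adjusted p = 0.0200). The Plin2 call was lost under 2 of the 13 alternative settings, with a change of -0.47 under median scaling (adjusted p = 0.0704) and -0.31 with the authors' values (adjusted p = 0.0508). It was also lost without WT_Scramble replicate 2 or 3 or VEGFR1del_VEGFB replicate 1 or 2, with an adjusted p of 0.0526 to 0.0821. The second Plin5 probe fell by 0.82 (SE 0.17, adjusted p = 0.00402 over all probes). For Ces1d the difference was -1.25 (SE 0.14), a signal at 42.1% of WT_Scramble.

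Of the synthesis enzymes, Dgat2 fell by 0.36 (SE 0.11, adjusted p = 0.0303, limma), to 77.7% of WT_Scramble, while Dgat1 differed by -0.02 (SE 0.13, adjusted p = 0.925). Pnpla2 fell by 0.31 (SE 0.10, adjusted p = 0.0440), a call lost under 4 of the 13 alternative settings and in 8 of the 12 fits without 1 array, with an adjusted p of 0.0511 to 0.142. These 8 were the fits without any 1 WT_Scramble heart, without VEGFR1del_Scramble replicate 1 or 2, and without VEGFR1del_VEGFB replicate 2, 3 or 4. The Dgat2 call was lost under 2 of the 13 alternative settings (adjusted p = 0.0622 with median scaling and 0.0565 with the replicate block). It was also lost without any 1 WT_Scramble heart or without VEGFR1del_VEGFB replicate 1, with an adjusted p of 0.0616 to 0.0903. Mgll differed by 0.37 (SE 0.13, adjusted p = 0.0645) and Lipe by -0.47 (SE 0.16, adjusted p = 0.0540), neither past the threshold. Mgll passed, as higher, under 6 of the 13 alternative settings and without VEGFR1del_VEGFB replicate 2 (adjusted p = 0.0482). Lipe passed under 1 setting and without VEGFR1del_VEGFB replicate 1 (adjusted p = 0.0214) or either WT_VEGFB heart. The 3 Mgll probes gave 0.37, 0.30 and 0.24, and the Lipe probes again had opposite signs, -0.47 and 0.21. The median over the 9, with Ces1d counted in, was -0.47, beside -0.03 over all genes. That median is the value of the brighter Lipe probe, so nothing is read from it.

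Genes of the same pathways were counted from lists of known members. Among 11 measured droplet proteins outside the 9, none was called with VEGF-B in wild-type hearts (limma), where 1.99% of all genes were. In VEGFR1-deleted hearts Fitm1 (-0.62, SE 0.16, adjusted p = 0.0472) and Fitm2 (-0.45, SE 0.11, adjusted p = 0.0406) fell, and on 11 arrays their changes were -0.78 and -0.57. Both code for endoplasmic reticulum proteins needed for droplet budding. Aup1, a droplet and quality-control protein, rose by 0.41 (SE 0.11, adjusted p = 0.0476), with a similar 0.42 on 11 arrays, where it was not past the threshold (adjusted p = 0.0634). In hearts with both deletion and VEGF-B against WT_Scramble, 4 of the 11 were called, where 21% of all genes were: Fitm1, Fitm2 and Cidea, which drives droplet fusion, were lower and Aup1 higher. The median of the list with VEGF-B in VEGFR1-deleted hearts was -0.11.

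Among 16 measured genes of triglyceride synthesis upstream of Dgat, VEGF-B in wild-type hearts raised Agpat4 (0.81, SE 0.13, adjusted p = 0.0148, limma) and Acsl5 (0.58, SE 0.13, adjusted p = 0.0447) and lowered Agpat2 (-0.53, SE 0.12, adjusted p = 0.0391). Of all genes, 1.99% were called in that comparison. Agpat2 and Agpat4 are acyltransferases that make phosphatidic acid, and Acsl5 activates fatty acids. In VEGFR1-deleted hearts Agpat2 was lower (-0.44, SE 0.10, adjusted p = 0.0274) and Acsl5 higher (0.45, SE 0.11, adjusted p = 0.0389), with -0.49 and 0.58 on 11 arrays. On 12 arrays 2 of the 16 passed, where 4.61% of all genes were called. In all, 4 genes passed on 11 arrays, where 7.3% of all genes were called. Gpam (-1.08, adjusted p = 0.00424), the mitochondrial enzyme of the first acylation step, and Lpin1 (-0.45, adjusted p = 0.0471), a phosphatidate phosphatase, were also lower there. With deletion and VEGF-B together 7 of the 16 passed, 2 higher and 5 lower, where 21% of all genes were called and 9.43% were called and lower.

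Among 11 measured lipolysis partners, Ces2e, a further carboxylesterase, rose with VEGF-B in wild-type hearts by 0.93 (SE 0.18, adjusted p = 0.0237, limma). Ces2e was the 1 gene of the 11 called there, where 1.99% of all genes were. In VEGFR1-deleted hearts none passed on 12 arrays, where 4.61% of all genes were called. On 11 arrays, where 7.3% were called, Ces2e (0.68, adjusted p = 0.0223, limma) and Lipa (0.51, adjusted p = 0.0309), the lysosomal acid lipase, were higher. With deletion and VEGF-B together 2 of the 11 were called, where 21% of all genes were, both higher: Ces2e by 1.07 (SE 0.15, adjusted p = 0.000367) and Lipa by 0.55 (SE 0.12, adjusted p = 0.00539). The co-activator of Pnpla2, Abhd5, gave -0.19 in wild type (SE 0.12) and -0.04 in VEGFR1-deleted hearts (SE 0.10), and its inhibitor G0s2 gave 0.51 (SE 0.30) and -0.01 (SE 0.25), none past the threshold. On 11 arrays the values in VEGFR1-deleted hearts were -0.09 and 0.15.

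With VEGF-B in wild-type hearts, where 1.99% of all genes were called, 4 of 22 measured PPAR-linked genes outside the droplet fell and none rose. They were Angptl4, an inhibitor of lipoprotein lipase (-2.12, SE 0.34, adjusted p = 0.0145, limma), Ucp3 (-1.76, SE 0.34, adjusted p = 0.0230), Pdk4, a brake on glucose oxidation (-1.49, SE 0.34, adjusted p = 0.0446), and the co-activator Ppargc1a (-0.77, SE 0.16, adjusted p = 0.0293). In VEGFR1-deleted hearts 8 fell, where 4.61% of all genes were called and 1.79% were called and lower. The 8 were led by the fatty acid transporter Slc27a1 (-0.76, SE 0.11, adjusted p = 0.00834) and the acyl-CoA thioesterase Acot1 (-2.01, SE 0.30, adjusted p = 0.00922). On 11 arrays these changes were -0.75 and -2.31, and 12 genes of the list fell, where 7.3% of all genes were called. Angptl4 also fell with the deletion under scramble virus (-2.09, SE 0.30, adjusted p = 0.0213), the 1 gene of the list to do so, and on 11 arrays its change of -2.02 was not past the threshold (adjusted p = 0.0833). With deletion and VEGF-B together, where 21% of all genes were called and 9.43% were called and lower, 18 were lower and 1, Pparg, was higher (0.57, SE 0.11, adjusted p = 0.00275). The list median was -0.29 in wild type and -0.42 in VEGFR1-deleted hearts.

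**Figure D4:**
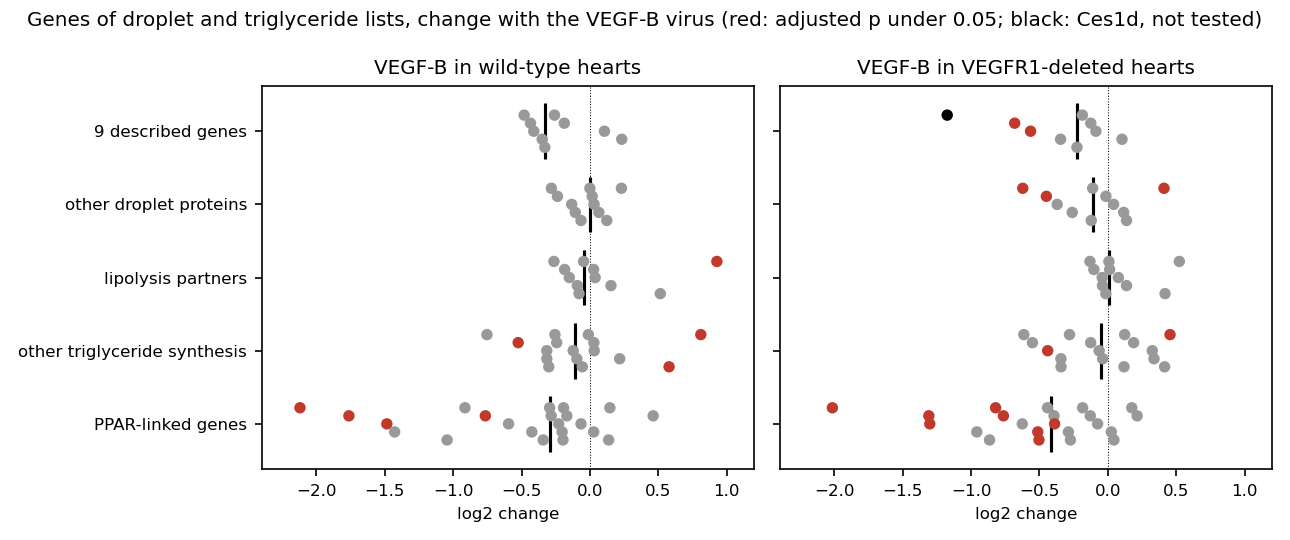
Each point is the log2 change of 1 gene with the VEGF-B virus (horizontal axis), in rows by gene list, for wild-type hearts on the left and VEGFR1-deleted hearts on the right; bars are list medians. Red points passed an adjusted p of 0.05, and the row of PPAR-linked genes reaches furthest down, to -2.12 and -2.01.

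The genes most like the 2 members with the widest spans were sought over all 12 arrays, by the root mean square difference of log2 signals after each gene was centred on its own mean. For Ces1d, whose own spread on that measure was 0.566, these were Armh4 (0.206), Myo5c (0.208), Kcnd2 (0.209), Acaa2 (0.224) and Tbc1d10c (0.225). Kcnd2 codes for a potassium channel of cardiac repolarisation and Acaa2 for the last enzyme of mitochondrial fatty acid oxidation. For Plin4, with a spread of 0.343, they were Gpt (0.093), an alanine aminotransferase, Eci1 (0.117), an isomerase of fatty acid oxidation, Fyco1 (0.119), the unnamed probe ILMN_2768786 (0.122) and Gstm7 (0.124). Within the 9 genes the nearest to Plin4 was its chromosomal neighbour Plin5 (0.182), and the nearest to Ces1d was Plin4 (0.256). All 12 arrays entered, the doubted library included. These genes were picked for their likeness out of all genes tested, so the values are a description.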

How the data were processed

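Heart RNA of 12 mice was read on Illumina bead arrays. The deposited non-normalized table gives, per the file headers, a probe signal (intensity, linear scale) and a detection p-value for 45281 probes. The authors' deposited series table holds log2 values, quantile normalized in 3 sets as found from the values, with the method not stated; it served as an alternative. Signals were background corrected and quantile normalized with neqc of limma 3.58.1 (R 4.3.3; offset 16). Probes with a detection p under 0.05 on at least 2 arrays were kept (20312), and the probe with the highest mean stood for a gene, giving 14240 genes (14116 on 11 arrays). Annotation gave 34885 probes 1 symbol, 18 several and 10378 none; the last kinds kept their probe names. A linear model with 4 group means was fitted (lmFit, eBayes), and tests were two-sided. The pipeline was tested on simulated data. Promoter windows came from RefSeq, GRCm38.p6.

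The members and lists were chosen with earlier results of these data known. All probes of the 9 genes are named; of each list, genes past the threshold, up to 4 by smallest p (Abhd5, G0s2 and Pparg, and Ces2e, Lipa, Gpam and Lpin1 on 11 arrays, were added after their values were seen), and 5 genes by likeness. Replicate numbers were not used as pairs in the main fit. Deviations of same-numbered arrays in different groups correlated across genes at -0.04 to 0.11 (median 0.02) over 15 pairs. Those of differently numbered arrays correlated at -0.13 to 0.16 (median -0.03) over 38 pairs. With so few hearts per group, these values cannot settle whether the numbers pair the hearts. Python 3.11.15 with matplotlib 3.10.9 drew the figures.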

Additional observations from a re-analysis of the deposited data

Results flagged for a closer look

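Within the 4 VEGFR1del_VEGFB hearts, 2 of the 14 probes had 1 heart set apart from the rest, judged by the gap of the extreme heart to its nearest neighbour as a share of the group's range. For Plin5 (ILMN_3158565) this share was 0.900, with replicate 3 at 11.00 and the next heart at 10.73. For Dgat2 it was 0.899, with replicate 1 at 11.87 and the next at 12.18. Chance sets a heart apart in this way in about 1 of 20 groups. The second Plin5 probe, with a share of 0.296, did not show the gap.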

How the results depend on the processing

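The changes of the 9 genes and their counts were recomputed under the alternatives for background correction, scaling, filter, choice of probe, variance model, arrays in the fit and blocks. Genes of the other lists were refitted only on 11 arrays. Of 1359 values of the 9 genes, 1302 kept their side of the threshold, 35 lost a call and 22 gained one. None with a call changed sign, but some changes that passed in neither fit did. With VEGF-B in wild-type hearts, Plin2 went from -0.48 to as high as 0.07. In VEGFR1-deleted hearts, Dgat1 went from -0.09 to as high as 0.13. The number of the 9 genes called for VEGF-B in wild type was 1 with trend and robust variance (Pnpla2). For the deletion with VEGF-B virus it was 2 (Plin4, with Ces1d counted in but described without a test) under normexp with an offset of 50, no background correction, neqc with an offset of 50, the authors' values, and trend and robust variance. For deletion and VEGF-B together it was 3 under median scaling. Leaving out 1 array gave 3 to 7 there (3 without WT_Scramble replicate 2 or 3), 2 to 3 for VEGF-B in VEGFR1-deleted hearts and 0 in the other comparisons. With a replicate block the counts were 2 for VEGF-B in VEGFR1-deleted hearts and 4 for both together. It is not known whether the numbers pair the hearts. The Plin5 call in VEGFR1-deleted hearts was also lost with the mean over probes, median scaling, no filter and only the 2 groups compared. For both together, Lipe and Mgll each gained a call when only probes detected on all arrays were kept. Plin4 passed in both of these comparisons under every alternative run and with any 1 array left out. Over all genes the share of higher calls was 61.1% for VEGF-B in VEGFR1-deleted hearts and 55.1% for both together, against 95.9% and 83.1% under median scaling and 86.6% and 80.4% with the authors' values. With median scaling the median gene stood at 0.12 in either VEGF-B comparison, and Plin4 gave -0.59 and Ces1d -1.10 in VEGFR1-deleted hearts. The dim signals of Lipe and the disagreement of its probes leave it without a direction.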
